A study of Rattus norvegicus with 2 samples.

Results

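The genes of respiratory complexes II to V that are encoded in the nucleus were compared in the whole kidney of Dahl salt-sensitive rats fed high salt, with and without an oral phosphate binder. Members were taken by gene symbol, as the genes whose own probe set carries a symbol beginning with Sdha to Sdhd, Uqcr, Cox4 to Cox8 or Atp5, together with Cyc1 and Cycs. This gave 64 members of the 22093 genes that had a probe set of their own. Of these, 8 belonged to complex II, 13 to complex III, 18 to complex IV and 24 to complex V, and Cycs encodes the mobile carrier cytochrome c. All 64 were found in RefSeq (build GRCr8). They comprised 37 ubiquitous subunits (Cycs and the complex III and IV partner Cox7a2l included), 5 isoforms of other tissues, 4 assembly factors, 1 inhibitor and 17 further loci whose symbols mark them as copies of a subunit gene. RefSeq classes 9 of the copies as pseudogenes, 7 as protein coding and 1 as a long non-coding RNA.

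Male Dahl/SS rats (strain Dahl-S in the labels) obtained at 3 weeks of age received AIN-93G chow with 8% NaCl, and kidneys were taken at 4 weeks of this diet. The DSH pool, labelled DS and control, received the high-salt chow alone. The DSH+2.5%SF pool, labelled DS+2.5%SF, also received sucroferric oxyhydroxide (SF) at 25 mg/g chow from 1 week after the start of high salt. SF is an iron-based compound that binds phosphate in the gut. The labels do not state the salt content, which was taken from the study's methods, and rats on normal salt were not analysed here. RNA from 3 rats per group was pooled and hybridised to 1 Clariom D array per group, so no difference below has a replicate check and no test between groups was possible.

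Electrons from succinate enter the respiratory chain through complex II and pass by ubiquinone to complex III, by cytochrome c to complex IV and from there to oxygen. Complexes III and IV pump protons across the inner mitochondrial membrane, and complex V, the ATP synthase, uses the returning protons to make ATP. Tubule cells of the kidney, above all those of the proximal tubule and the thick ascending limb, are rich in mitochondria because active transport consumes much ATP.

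The level of a gene is the deposited array intensity, and a difference is the log2 ratio of DSH+2.5%SF over DSH, so that values below 0 mean a lower intensity with SF. A gene was called higher or lower by the thresholds of the study's methods, a Z-score of at least 2 with a ratio of at least 1.5, or a Z-score of at most −2 with a ratio of at most 0.66. The Z-score sets each log2 ratio against the mean and SD over all 68842 probe sets, so that a gene had to be 1.63-fold higher or 1.57-fold lower. Over all genes, 1.09% were called higher and 1.36% lower. In whole kidney, fewer cells of a type and less RNA per cell cannot be told apart.

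No member passed these thresholds in either direction. Most members nevertheless had a lower intensity in the DSH+2.5%SF pool. The log2 ratio was below 0 for 50 members (78.1%), above 0 for 10 and exactly 0 for 4, whereas 47.5% of all genes were below 0, 43.4% were above and 9.13% held the same intensity in both pools. The median log2 ratio of the members was −0.22 (quartiles −0.35 and −0.02), which is 1.16-fold lower, and that of all genes was 0.00 (quartiles −0.16 and 0.13). The members spanned −0.55 to 0.45, while all genes spanned −2.22 to 1.78. A log2 ratio of −0.2 or less was found in 37 members (57.8%) and in 21.3% of all genes. The kinds of member differed. Of the 37 ubiquitous subunits 34 (91.9%) were below 0, with a median of −0.29. Of the 17 copies 12 were below 0, with a median of −0.17, and of the 5 isoforms of other tissues 1 was.

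Brightness moved with this shift. In all, 47 members reached the 75th percentile of intensity (83.8) in at least 1 pool, and 42 of them (89.4%) were below 0, with a median of −0.31. Among the 8269 genes of all kinds that reached it, 58.7% were below 0 and the median was −0.06. A log2 ratio of −0.2 or less was found in 35 of these 47 members (74.5%) and in 29.8% of these genes. The 17 dimmer members had a median of 0.00, with 8 below 0, and dim genes of all kinds also had a median of 0.00. Brightness went with the kind of member, since 34 of the 37 subunits reached this level but 10 of the 17 copies and none of the 5 isoforms of other tissues. The 2 were not separated. Above this level the shift was uneven, with a median of −0.02 for the 7 members at mean log2 intensities of 7 to 8 and −0.33 for the 13 at 8 to 9.

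**Figure D1:**
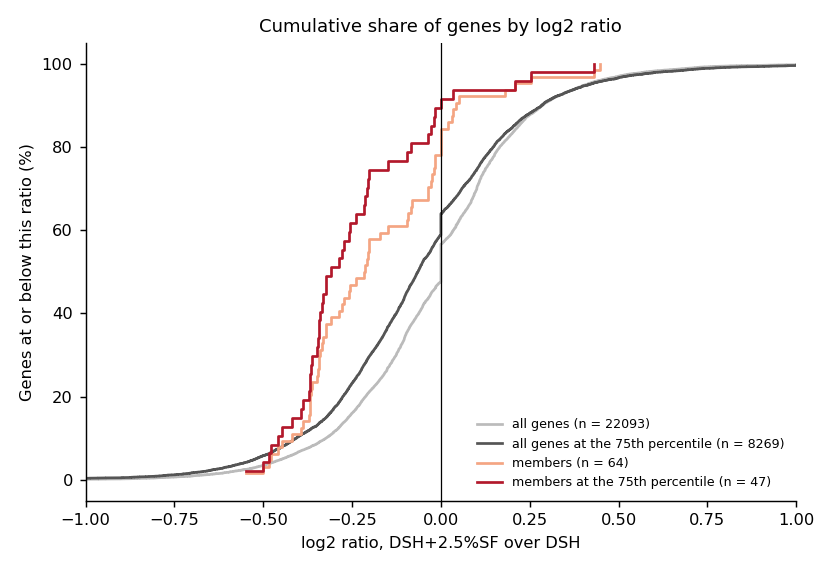
Cumulative share of genes (percent, vertical axis) at or below each log2 ratio of DSH+2.5%SF over DSH (horizontal axis), for all genes, for genes that reached the 75th percentile of intensity, and for the members of each set. The curve of the 47 brighter members runs left of that of the 8269 brighter genes between −0.4 and 0, with medians of −0.31 and −0.06.

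**Figure D2:**
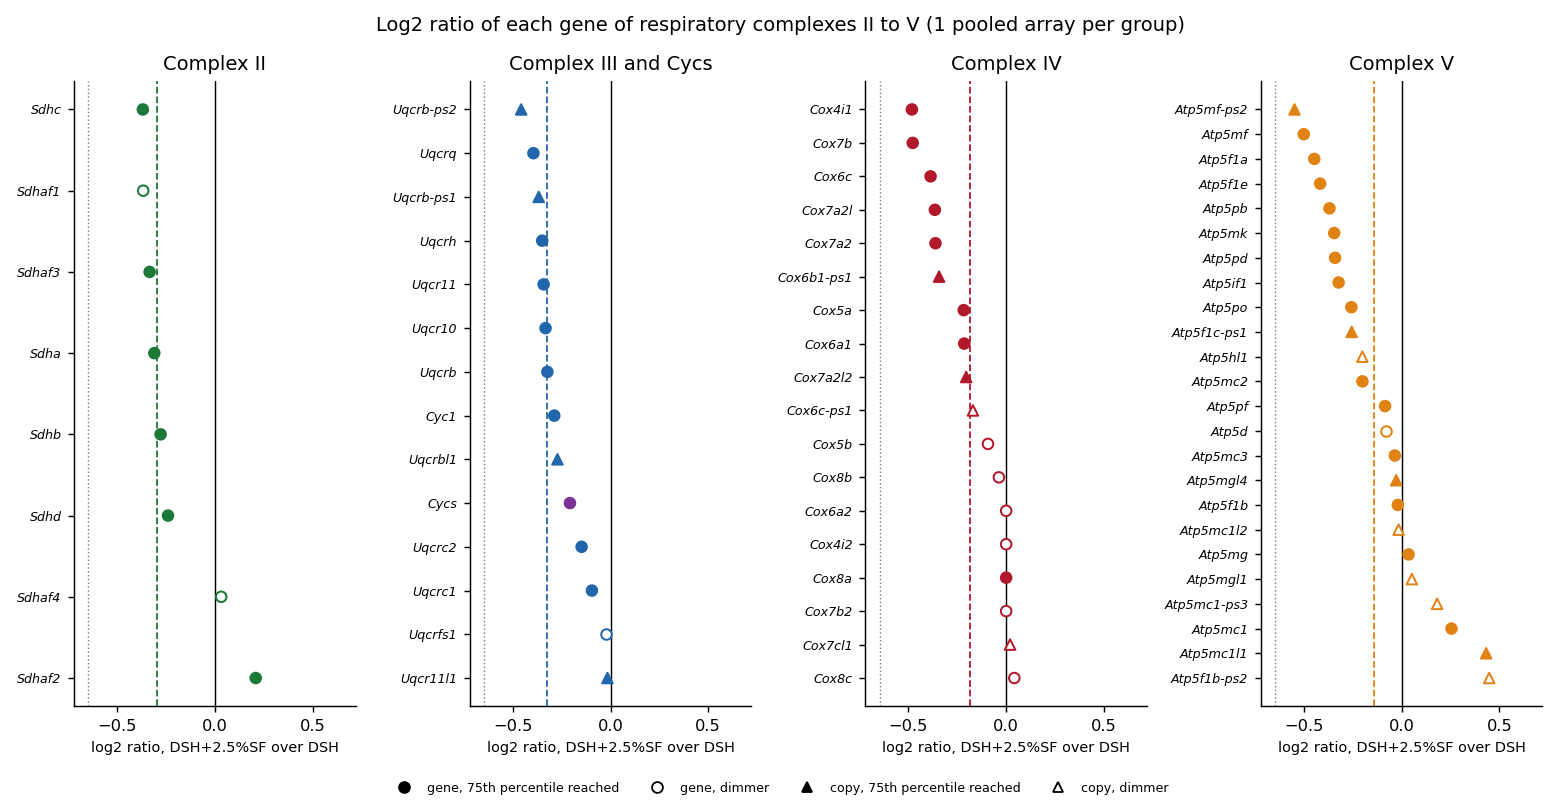
Log2 ratio of DSH+2.5%SF over DSH (horizontal axis) for each of the 64 members, by complex, from 1 pooled array per group. Circles are genes, triangles are copies, and filled symbols reached the 75th percentile of intensity. The dashed line is the median of the complex (Cycs not included), the dotted line the limit for a lower call at −0.65, which no member reached.

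Complex II, succinate dehydrogenase, is shared by the respiratory chain and the citric acid cycle, and all of its 4 subunits had a lower intensity with SF. Sdha, the flavoprotein that oxidizes succinate, had 4231 in the DSH pool and 3412 in the DSH+2.5%SF pool (log2 ratio −0.31, 1.24-fold lower). Sdhb, the iron-sulfur subunit, had 564 and 465 (−0.28). The membrane anchors were at 3819 and 2957 for Sdhc (−0.37) and 1042 and 883 for Sdhd (−0.24). The 4 log2 ratios thus lay between −0.37 and −0.24.

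The assembly factors of complex II were split. Sdhaf1, which helps insert the iron-sulfur clusters into SDHB, had an intensity of 80.0 without SF and 62.1 with SF (−0.37). Sdhaf3, which acts at the same step, had 294 and 233 (−0.33). Sdhaf2, needed for attaching flavin to SDHA, was on the other side, at 403 and 465 (0.21). Sdhaf4, which assists assembly of the flavinated SDHA, was almost the same in both pools, at 59.0 and 60.4 (0.03). The median over the 8 complex II genes was −0.29.

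Complex III, ubiquinol-cytochrome c reductase, was the one complex with every member below 0, 13 of 13 with copies included, and its median was −0.32. The copy Uqcr11l1 turned above 0 when a lowess trend was subtracted. Without copies, all 9 subunits were below 0, also with a median of −0.32. Of these, the 5 small subunits lay in a narrow band from −0.39 to −0.32. Uqcrq had an intensity of 185 without SF and 141 with SF (−0.39), Uqcrh, the hinge protein of the cytochrome c1 site, 470 and 369 (−0.35), and Uqcr11 had 419 and 331 (−0.34). The redox and core subunits differed less between the pools. Cyc1, the cytochrome c1 that hands electrons to cytochrome c, had 195 and 160 (−0.29). The core proteins Uqcrc2 and Uqcrc1 had 10274 and 9271 (−0.15) and 474 and 443 (−0.10). Uqcrfs1, the Rieske iron-sulfur protein, had 70.4 and 69.2 (−0.03) and stayed under the 75th percentile. The median was −0.34 over the 5 small subunits and −0.12 over these 4 (a split made after the values were seen).

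Cycs, cytochrome c itself, had an intensity of 55951 without SF and 48450 with SF (−0.21). The identifier of this probe set places it on chromosome 18, whereas RefSeq has Cycs on chromosome 4. The second Cycs probe set, on chromosome 4 by its identifier, had 4170 and 3809 (−0.13).

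Complex IV, cytochrome c oxidase, passes the electrons to oxygen, and its nuclear subunits surround a core encoded in mitochondrial DNA. Of its 9 ubiquitous nuclear subunits with a probe set of their own, 8 were below 0 and Cox8a held the same intensity in both pools. The lowest was Cox4i1, the ubiquitous form of the subunit that binds regulatory adenine nucleotides, with 1575 without SF and 1128 with SF (−0.48). Cox7b followed with 2388 and 1715 (−0.48), and Cox6c with 27306 and 20886 (−0.39). These were the 3 lowest log2 ratios of the complex, although after quantile normalization Cox6c was at −0.28 and thus above Cox7a2l (−0.37) and Cox7a2 (−0.34).

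Cox7a2, the liver-type isoform of subunit 7A, had 5306 and 4130 (−0.36). Cox7a2l, a related protein that joins complexes III and IV into supercomplexes, had 477 and 370 (−0.36). Cox5a had 313 and 269 (−0.22), and Cox6a1, the liver-type isoform of subunit 6A, had 17673 and 15232 (−0.21). Cox5b, the zinc-binding subunit, was closer to 0, at 70.2 and 65.8 (−0.09). Cox8a was at 153 in both pools. Such identical values were held by 5.18% of the genes that reached the 75th percentile.

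The isoforms of other tissues were dim and did not share the shift. Cox4i2, an isoform of lung that responds to hypoxia, had 22.2 in both pools. Cox6a2 and Cox8b, the heart and skeletal muscle isoforms, had 14.1 in both pools and 9.35 and 9.12 (−0.04). The testis isoforms Cox7b2 and Cox8c had 13.0 in both pools and 14.9 and 15.3 (0.04). None of the 5 reached the 75th percentile, and each stood beside a ubiquitous partner in the same complex that did. Cox6b1 and Cox7a1 had no probe set of their own and were not analysed here. Cox7c, a further ubiquitous subunit, has only a probe set shared with LOC252890, which reached the 75th percentile and was nearly level at 120.9 and 119.7 (−0.01). Cox6b2 has only a probe set shared with Garin5b, which was dim at 18.3 and 19.9 (0.12). Complex IV as a whole had 12 of 18 members below 0 and a median of −0.19. Over its 9 ubiquitous subunits the median was −0.36.

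Complex V, the ATP synthase, had 18 of 24 members below 0, 6 above 0 and a median of −0.14, copies included. Over its 14 subunits alone, 12 were below 0, 2 were above 0 and the median was −0.23. Its catalytic head is built of alpha and beta subunits in equal number, and their genes gave unlike values. Atp5f1a, the alpha subunit, had an intensity of 46150 without SF and 33844 with SF (−0.45, 1.36-fold lower). Atp5f1b, the catalytic beta subunit, had 95296 and 93982 (−0.02). Both probe sets were very bright. Genes of all kinds had a median of 0.00 at mean log2 intensities of 15 to 16, where Atp5f1a lies, and of −0.08 at 16 to 17, where Atp5f1b lies. Identical values in both pools were held by 14.6% and 21.6% of genes in these ranges, beside 5.18% of genes that reached the 75th percentile. Whether differences are reduced at such intensities was not tested.

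Among the other subunits of the head and the central stalk, Atp5f1e (epsilon) had 519 and 388 (−0.42). Atp5d, the delta subunit now named Atp5f1d, was dim, at 38.0 and 35.9 (−0.08). The gene of the gamma subunit, Atp5f1c, had no probe set of its own, and the one it shares with Taf3 was at 274 in both pools.

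The peripheral stalk, which holds the head still against the rotor, had all 4 of its genes below 0. Atp5pb (subunit b) had 19408 and 15019 (−0.37) and Atp5pd (subunit d) 20085 and 15855 (−0.34). Atp5po, the oligomycin sensitivity conferring protein, had 1331 and 1113 (−0.26), and Atp5pf (coupling factor 6) had 2586 and 2438 (−0.09). Of the small membrane subunits, Atp5mf (f) had 411 and 290 (−0.50, 1.42-fold lower), the lowest log2 ratio of a subunit by the brightest probe set. With its probe sets averaged, Atp5f1e was lower, at −0.63. Atp5mk (k) had 11219 and 8829 (−0.35), while Atp5mg (g) had 319 and 326 (0.03, below 0 after median centring). Atp5me has only a probe set shared with Slc49a3, which was dim at 44.2 and 38.7 (−0.19).

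Subunit c, which forms the rotor ring, is made from 3 genes whose mature proteins are identical, and these gave unlike values. Atp5mc2 had 4731 without SF and 4115 with SF (−0.20). Atp5mc3 had 278 and 271 (−0.04). Atp5mc1 was higher with SF, at 143 and 170 (0.25, 1.19-fold), the largest positive log2 ratio of any subunit gene. Atp5if1, the inhibitor that stops the enzyme from hydrolysing ATP when the membrane potential is lost, had 342 and 274 (−0.32).

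**Figure D3:**
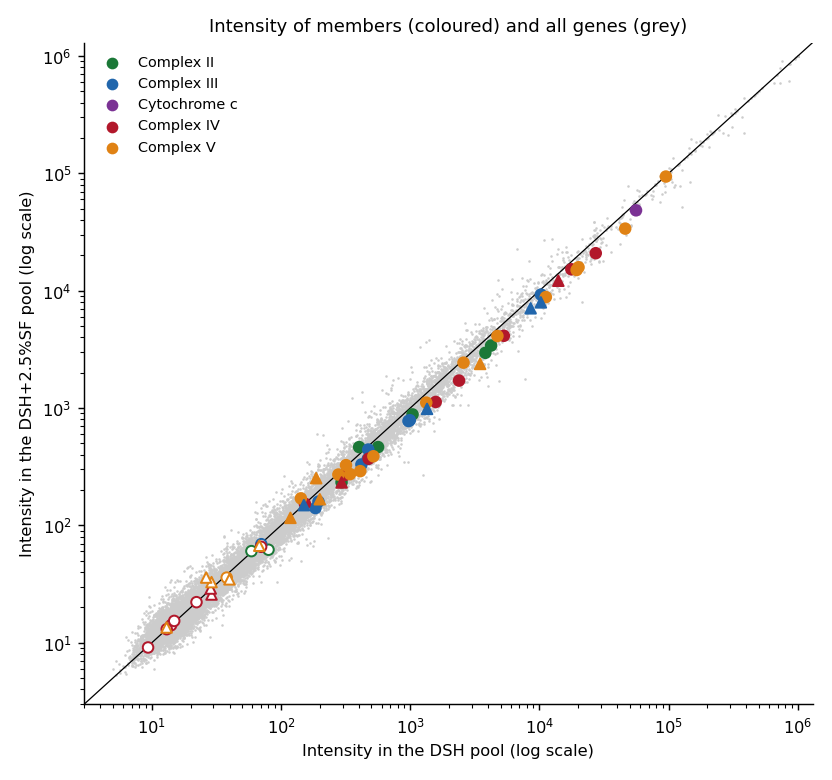
Intensity of each gene in the DSH pool (horizontal axis, log scale) and in the DSH+2.5%SF pool (vertical axis, log scale), 1 pooled array per group. Grey points are all 22093 genes, coloured circles the member genes, coloured triangles their copies, open where the 75th percentile was not reached. Members of high intensity lie mostly just under the diagonal of equal intensity, from Cyc1 at 195 and 160 to Atp5f1a at 46150 and 33844, and Atp5f1b lies on it.

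Copies of the subunit genes can share much of their sequence with the gene of origin, so that a probe set of one may also take up RNA of the other, which was not tested here. A gene of origin with its own probe set was available for 14 of the 17 copies. In 11 of these, the copy and the gene lay on the same side of 0, and in 6 their log2 ratios differed by at most 0.1. Of all members 78.1% were below 0, so a shared side is common among members of any kind. The pseudogene Atp5mf-ps2 had the lowest log2 ratio of all members, at 3477 without SF and 2377 with SF (−0.55), next to Atp5mf at −0.50. The copies of Uqcrb (−0.32) were also below 0, at 1350 and 984 for Uqcrb-ps2 (−0.46), 10262 and 7955 for Uqcrb-ps1 (−0.37) and 8547 and 7080 for Uqcrbl1 (−0.27).

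The highest log2 ratios of all members also belonged to copies. Atp5f1b-ps2 had 26.4 and 35.9 (0.45, 1.36-fold higher) and was dim in both pools. Atp5mc1l1 had 187 and 253 (0.43), and Atp5mc1-ps3 had 29.0 and 32.9 (0.18), both on the same side of 0 as Atp5mc1 (0.25). The remaining Atp5mc1 copy, Atp5mc1l2, had 67.9 and 67.1 (−0.02). In complexes III and IV the copies nearest to or above 0 were Uqcr11l1 at 150.4 and 148.8 (−0.02) and Cox7cl1 at 28.6 and 29.0 (0.02). The probe set named for the pseudogene Cox6b1-ps1 had 295 and 232 (−0.34). Its identifier places it on chromosome 1, while RefSeq has that pseudogene on chromosome 2 and lists Cox6b1 among its former names.

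Second probe sets were present for 5 members, and each of them was also below 0. For Atp5pb the second probe set had 2374 without SF and 1812 with SF (−0.39), beside −0.37 for the first. For Atp5mk the values were 310 and 253 (−0.29), beside −0.35. That dimmer Atp5mk probe set lies on chromosome 1 by its identifier, as RefSeq has the gene, and the brighter one on chromosome 10. The 2 further Sdhaf1 probe sets held identical values of 58.2 and 42.1 (−0.47) and therefore count as 1 measurement. The second Atp5f1e probe set had 209 and 116 (−0.85, 1.80-fold lower) and was the single one of the 70 member probe sets to pass the thresholds, which 1.45% of all probe sets with 1 gene symbol passed in that direction. Its identifier places it on chromosome 14, whereas RefSeq has Atp5f1e on chromosome 3.

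Genes of the respiratory chain are known to carry binding sites of nuclear respiratory factor 1 (NRF-1), of the ETS protein NRF-2 (Gabpa with Gabpb1) and of YY1 near their start sites. Promoters of RefSeq (GRCr8), from 250 bases before to 50 after the start, were matched to 46 of the 64 members and searched on both strands for GCGCATGC (NRF-1), CCGGAAGT (ETS) and AAGATGGC (YY1), words whose ends can overlap by a few bases. Of the 40 matched members that are not copies, 7 (17.5%) held the NRF-1 word, 5 (12.5%) the ETS word and 6 (15%) the YY1 word. Over the first listed promoter of all 27457 genes the shares were 2.66%, 4.01% and 3.44%. At least 1 word was present in 15 of the 40 and in 9.42% of all genes. The median log2 ratio was −0.21 over those 15 members and −0.24 over the other 25. The single words differed in direction. With and without the NRF-1 word the medians were −0.20 and −0.31, with and without the ETS word −0.35 and −0.22. For the YY1 word they were −0.18 and −0.23. A match is only a run of letters and does not show a bound site.

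The stretches below show where such words stand before the start of members with a log2 ratio below 0, none of which passed the thresholds. They are the 4 members with the lowest log2 ratios among the 13 with a word wholly before the start, each 120 bases long, written 5′ to 3′ on the strand of the gene with the word in capitals. Atp5f1a is chr18:73567417-73567536 (plus strand, the ETS word in reverse complement beginning 61 bases before the start), Uqcrq is chr10:38089979-38090098 (minus strand, ETS word at 22 bases), Uqcrh is chr5:134790903-134791022 (minus strand, ETS word in reverse complement at 84 bases) and Sdhb is chr5:158547711-158547830 (plus strand, NRF-1 word in reverse complement at 167 bases).
Atp5f1a: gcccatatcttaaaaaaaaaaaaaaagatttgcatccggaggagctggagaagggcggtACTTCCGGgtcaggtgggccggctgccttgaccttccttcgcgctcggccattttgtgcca
Uqcrq: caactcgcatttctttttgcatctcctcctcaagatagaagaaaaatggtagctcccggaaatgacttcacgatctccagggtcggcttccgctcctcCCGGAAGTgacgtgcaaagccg
Uqcrh: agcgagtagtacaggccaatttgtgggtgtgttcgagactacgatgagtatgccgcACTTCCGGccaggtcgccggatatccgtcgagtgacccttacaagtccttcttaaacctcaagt
Sdhb: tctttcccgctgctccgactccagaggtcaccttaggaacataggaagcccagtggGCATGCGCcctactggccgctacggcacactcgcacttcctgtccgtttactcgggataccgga

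Other gene lists of the mitochondrion were chosen with earlier results of these data known, and are given to place the members. Complex I, which feeds electrons from NADH into the same chain, had 28 of 45 genes below 0 and a median of −0.08. In it 3 genes were called lower and none higher: Ndufv1, the subunit that binds NADH, at 1204 and 730 (−0.72), Ndufs6 at 1299 and 816 (−0.67) and its pseudogene Ndufs6-ps1 at 305 and 184 (−0.73). The highest of the list was Ndufa3-ps3 (0.61). Complex I was thus wider in spread than complexes II to V, with lower quartile −0.33 and upper quartile 0.08, and nearer to 0 in its median. Of its 36 genes that reached the 75th percentile, 23 (63.9%) were below 0, beside 58.7% of all genes that reached it.

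Assembly factors of complexes II to V, of which 37 of 42 were measured and 4 are members, had 21 below 0, none past the thresholds and a median of −0.13. The 22 that reached the 75th percentile had 11 below 0 (50%) and a median of −0.02. All genes that reached it had 58.7% below 0 and a median of −0.06. Over the whole list, the assembly factors had a wide range. They ran from Cox14 (133 and 89.5, −0.57), which stabilises newly made COX1, to Cox16 (8184 and 12166, 0.57), which acts in the assembly of COX2. Citric acid cycle enzymes had 10 of 15 measured genes below 0 (66.7%), none past the thresholds and a median of −0.13, from Idh2 (−0.30) to Idh3a (0.17). All 15 reached the 75th percentile. A list of mitochondrial carriers, pore proteins, creatine kinases and Ppif had 8 of 14 below 0 and a median of −0.03. Of its 13 genes that reached the 75th percentile, 7 were below 0 (53.8%). The lowest of the list was Ckmt1, a mitochondrial creatine kinase (−0.51). Its 1 gene past the thresholds was Ppif, which encodes cyclophilin D, at 357 and 1222 (1.78).

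Regulators of mitochondrial biogenesis lay on both sides of 0. Of 15 measured genes 9 were above 0, 5 below and none past the thresholds, while 43.4% of all genes were above 0. Their median was 0.08 (quartiles −0.09 and 0.14). Ppargc1a, the coactivator PGC-1α, had 5282 and 5566 (0.08), Nrf1 had 155 and 141 (−0.13), Gabpa 539 and 587 (0.12) and Yy1 had 127 and 135 (0.10). The list ran from Tfam, the packaging and transcription factor of mitochondrial DNA, at 317 and 267 (−0.25), to Ppargc1b at 109 and 140 (0.36).

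Ribosomal proteins were compared as large groups of genes. The 80 mitochondrial ribosomal protein genes had 50 below 0, 2 called lower (Mrpl41 at −0.88 and Mrpl53 at −0.65) and a median of −0.09, with Mrps36 highest (0.55). The 308 cytosolic ones, pseudogenes included, had 227 below 0 (73.7%), 13 called lower, 2 higher and a median of −0.17, from Rps16 (−0.87), Rps19l3 (−0.86) and Rps18 (−0.83) to Rps12l3 (1.02). Among those that reached the 75th percentile the cytosolic group had a median of −0.22 and the mitochondrial group −0.13. The members had −0.31 and all genes −0.06, so a shift below 0 was also present outside the mitochondrion.

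**Figure D4:**
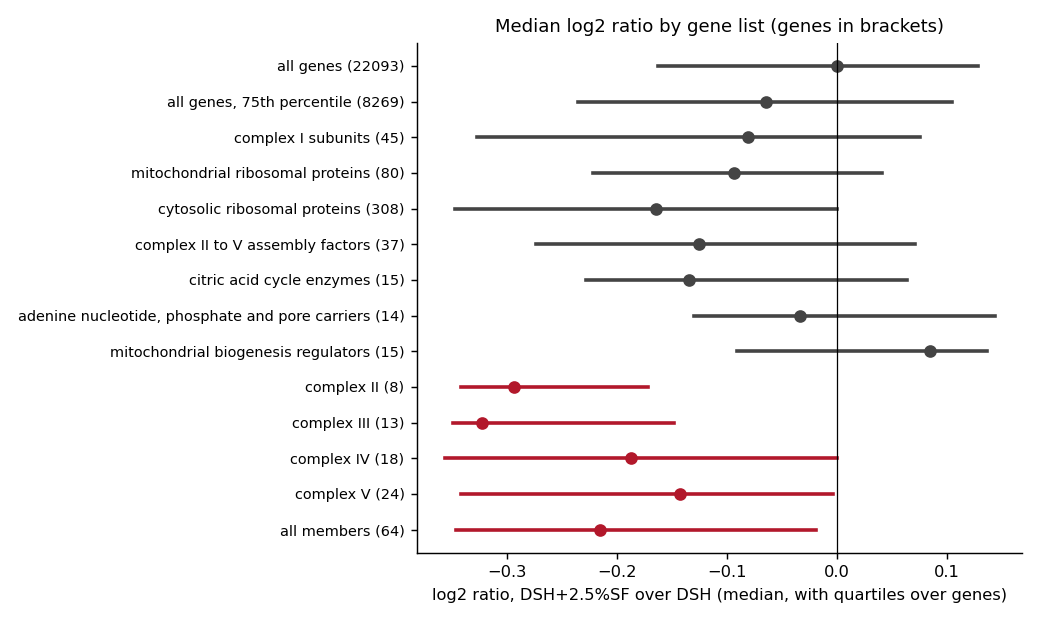
Median log2 ratio of DSH+2.5%SF over DSH (point, horizontal axis) with the quartiles over genes (line) for each gene list, the number of genes in brackets. The lines show the spread between genes and not an error between animals. Of the lists drawn, which leave out the cell type markers, complexes II and III lie lowest, at −0.29 and −0.32, and biogenesis regulators highest, at 0.08. Each complex is drawn with all its members, copies, assembly factors and tissue isoforms included. Over subunits alone the medians were −0.29, −0.32, −0.36 and −0.23 for complexes II, III, IV and V.

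The core subunits encoded in mitochondrial DNA were not found under the symbols listed for them. Probe sets named COX1, COX2 and COX3, looked up after the values were seen, stood at the highest intensity of the table in both pools, a value shared by 280 probe sets of the DSH pool and 288 of the DSH+2.5%SF pool. No difference can be read from them.

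Markers of the cell types of the kidney were set beside the members, and their part in the shift was not tested. The 14 proximal tubule markers had a median of 0.01, with 8 above 0, 4 below 0 and Aqp1 called lower (−0.79). Their summed intensity was 679923 without and 665558 with SF. Most of each sum was Miox (201059 in both pools), Lrp2 (181082 and 172864) and Slc34a1 (103542 in both pools). Aqp1 had 31005 and 17943, so the sums say little about the other markers. The 6 thick ascending limb markers had a median of 0.07, with 3 above 0, 2 below and Umod at 469762 in both pools. Their sums were 649200 and 643900, and most of each was Umod. This list was split, from Cldn19 (−0.45) and Slc12a1 (−0.43) to Kcnj1 (0.40). Lists with a median below −0.4 were inner medulla (−0.47, 5 of 6 below 0, Akr1b1 called lower, sums of 9524 and 6840) and fibroblast and smooth muscle (−0.56, 6 of 6 below 0, Tagln, Col1a1 and Col3a1 called lower, sums of 4534 and 3211). Intercalated cell markers had a median of 0.49 with Foxi1 called higher, and the distal convoluted tubule and principal cell list one of −0.12 with Calb1 called higher and Aqp3 lower. Podocyte (3 of 6 measured), endothelium, macrophage and adipocyte lists had medians of 0.15, −0.11, −0.17 and −0.06 with none past the thresholds. Striated muscle markers, of which 9 of 10 were measured, all stayed under the 75th percentile, as did the muscle isoforms Cox6a2 and Cox8b.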

How the data were processed

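Array intensities were deposited by the authors on a linear scale, made from the scans with RMA in Affymetrix Expression Console 1.4.1 per the submitters' processing notes. The highest values exceed what a scanner usually records and the sources used here do not state a rescaling, so folds hold on the deposited scale only. The number of arrays, 1 per group, limits the precision. Gene symbols came from the platform annotation, in which 23446 probe sets had 1 symbol, 505 several and 44891 none. The probe set with the highest mean log2 intensity stood for each gene. Log2 ratios, Z-scores, counts and medians were computed with pandas 2.3.3 and numpy 2.4.6. The calling step was checked on simulated data, with changes larger than that of any member, so the check does not cover differences of their size.

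The members and all lists were chosen with earlier results of these data known. Named genes were the 3 highest and 3 lowest of each complex, the catalytic or cofactor subunits, isoform pairs, members with several probe sets, and from other lists those past the thresholds (up to 4) with the highest and lowest. A few more (Uqcrh, Uqcr11, Atp5pd, Atp5po, Atp5pf, Atp5mg, Atp5d, some copies, Nrf1, Gabpa, Yy1 and Ppargc1a) were named after their values were seen. Alternatives changed the scaling, thresholds, probe set choice and membership.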

Additional observations from a re-analysis of the deposited data

How the results depend on the processing

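No member passed the thresholds when the Z-score was taken from the 1000 probe sets nearest in mean log2, by the ratio alone, with ratio limits of 2 and 0.5, or after median centring, quantile normalization or subtraction of a lowess trend. With the dimmest probe set of each gene, added after seeing the data, 1 member was lower (Atp5f1e). The median of the members lay between −0.31 and −0.21 over all settings. The share below 0 went from 78.1% to 90.6% with median centring, where the median of all genes was −0.05, and to 89.4% with only members that reached the 75th percentile. The latter setting also moved the median of complex IV from −0.19 to −0.35 and of complex V from −0.14 to −0.26. Scaling changed the sign of 4 members with median centring (Atp5mg, Cox7cl1, Cox8c and Sdhaf4), 2 with quantile normalization (Cox7cl1 and Cox8c) and 3 with the lowess trend (Cox7cl1, Cox8c and Uqcr11l1), all within 0.05 of 0 as reported. Cox6c moved from −0.39 to −0.28 with quantile normalization, and Atp5f1e from −0.42 to −0.63 with the mean of all its probe sets. No paired analysis was possible because each group has 1 array. Leaving out a replicate was not possible for the same reason.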
